A study of Mus musculus with 6 samples.

Results

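Costimulatory and inhibitory receptors sit on the surface of T cells and set how strongly a T cell answers when its antigen receptor is engaged. The group described here was given as a list of 10 genes chosen by name: Cd28, Icos, Cd2 and Cd226, which encode activating receptors, Btla, Vsir, Pdcd1 and Lag3, which encode inhibitory receptors, Cd96, whose product competes with that of Cd226 for the same ligand, and Cd200, a membrane ligand that restrains cells carrying its receptor. The list was drawn up with earlier results of these data known. All 10 genes were found among the 55487 genes of the deposited tables. Activating receptors of this kind recruit kinases and adaptors that add to the antigen receptor signal, and inhibitory ones recruit phosphatases or compete for ligand. Naive T cells carry several of them before they meet antigen, among them CD28 and CD2, whereas PD-1, LAG-3 and ICOS are best known on activated, follicular, regulatory or exhausted T cells.

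The libraries were made from poly(A) RNA of splenic naive CD4+ T cells, taken from C57BL6/J wild-type animals. The untreated group had 3 libraries from mice without treatment, and the rapamycin group had 3 libraries from mice treated in vivo with rapamycin, which inhibits the kinase mTOR. The labels give no dose, route, duration, age or sex, and do not say whether each library came from its own mouse, so each p-value reflects library-to-library spread only, and part of that may be technical. The comparison asks which transcripts of naive cells differ when mTOR is inhibited.

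Expected counts summed per library ran from 9712671 to 11393317 in the untreated and from 8757280 to 9315370 in the rapamycin group, and 3 counts corresponded to between 0.263 and 0.343 CPM, the share of a library's counts scaled to a fixed total. The deposited length exceeded the effective length by a median of 239 to 240 bases in untreated and 251 to 257 bases in rapamycin libraries. This gap follows fragment size and did not overlap between the groups. Effects of treatment and of this library property therefore cannot be told apart. The T cell genes Cd3e and Cd4 stood at 357 ± 3.55 and 716 ± 11.6 CPM without treatment and at 348 ± 3.15 and 687 ± 9.29 CPM with rapamycin (mean ± SD, n = 3 here and throughout). Of 11950 genes tested, 47.4% passed an adjusted p of 0.05 (quasi-likelihood test of edgeR, p-values adjusted by Benjamini-Hochberg over all genes tested), 24.1% higher and 23.3% lower with rapamycin. The median log2 fold change of all genes, rapamycin over untreated, was −0.01.

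The level of each receptor gene relative to the others was read from the deposited TPM, which is scaled for transcript length. Cd2, whose product binds CD48 on neighbouring cells, was the most abundant, with 376 ± 14.1 TPM in untreated and 364 ± 11.1 TPM in rapamycin libraries. It held 45.4 ± 1.28% of the summed TPM of the 10 genes in the untreated group and 42.3 ± 0.752% in the rapamycin group. Vsir, which encodes the inhibitory receptor VISTA, followed with 133 ± 3.64 and 152 ± 0.676 TPM. In every library of either group Cd2 lay above Vsir and Vsir above the other 8 genes. In untreated libraries Btla (78.7 ± 3.18 TPM), Cd96 (74.0 ± 4.15 TPM) and Cd28 (73.3 ± 2.01 TPM) came next and overlapped from one to the next, so that their order is within the spread between libraries. In rapamycin libraries Cd28 stood clear of Cd96 and Btla, with 94.8 ± 0.182 against 71.1 ± 2.84 and 70.8 ± 3.22 TPM, and Cd226 at 68.7 ± 2.62 TPM overlapped with Btla, whereas in the untreated group Cd226 lay below all of them at 51.6 ± 3.91 TPM.

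Cd200 and Icos were lower in the order and changed places. Cd200 had 24.8 ± 7.43 and Icos 14.4 ± 0.486 TPM in untreated libraries, with no overlap, and 15.9 ± 3.31 and 18.8 ± 1.27 TPM in rapamycin libraries, where their ranges overlapped. Pdcd1, which encodes PD-1, had 2.84 ± 0.601 and 2.77 ± 0.998 TPM. Lag3, which encodes a receptor for MHC class II molecules, was the lowest, with 0.753 ± 0.290 and 1.7 ± 0.227 TPM. The TPM of the 2 groups did not overlap for 6 of the 10 genes (Cd28, Icos, Cd226, Vsir and Lag3 above, Btla below), beside 47% of all genes tested. The summed TPM of the 10 genes was between 823 and 844 in untreated and between 848 and 870 in rapamycin libraries.

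**Figure D1:**
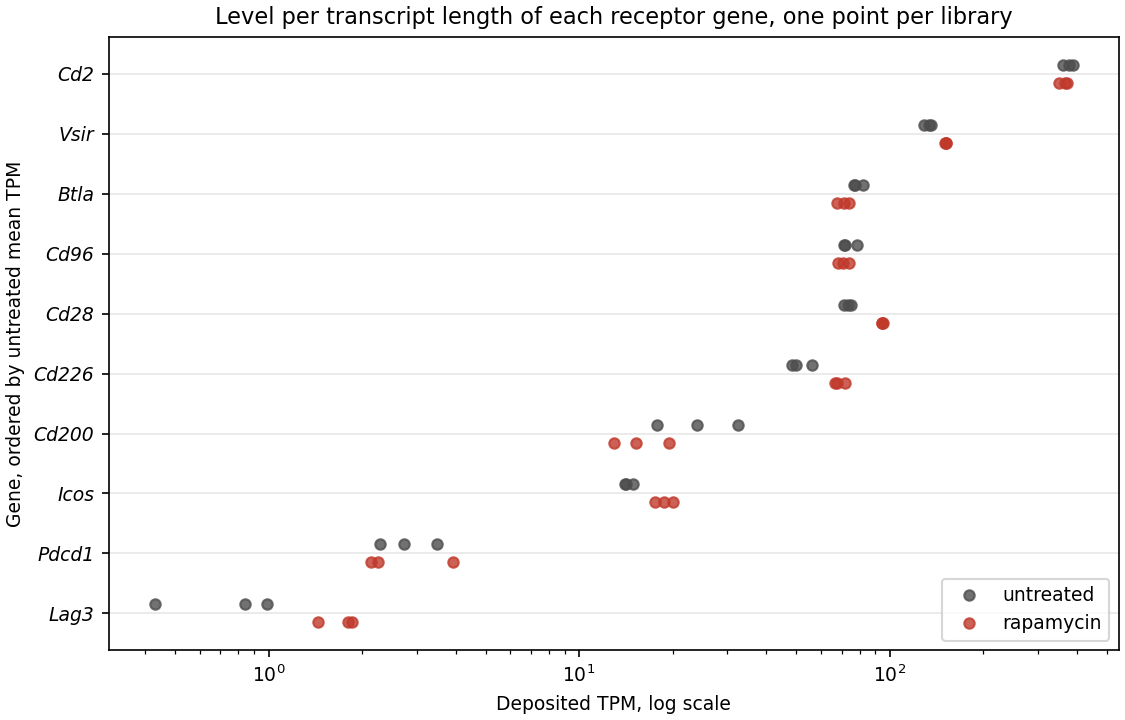
Deposited TPM (log axis) of each of the 10 receptor genes in each of the 3 untreated (grey) and 3 rapamycin (red) libraries, ordered by the untreated mean. Cd2 and Vsir lie above the other genes in both groups, and the rapamycin points of Cd28 and Cd226 lie above the untreated ones.

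Within each gene, the groups were compared on counts. CPM values below are expected counts scaled to the library total with TMM factors for composition. With rapamycin 5 of the 10 genes were higher (Cd28, Icos, Cd226, Vsir and Lag3) and 3 were lower (Btla, Cd2 and Cd96) at an adjusted p under 0.05, beside 24.1% and 23.3% of all genes tested, while Cd200 and Pdcd1 did not pass. All 10 passed the filter on low counts. The CPM of the 2 groups did not overlap for 8 of the 10 genes, beside 53.8% of all genes tested. The changes were small except in the low-count gene Lag3: the other 7 called genes differed by at most 0.28 on the log2 scale. The median of the 10 log2 fold changes was −0.02, beside −0.01 over all genes. In bulk RNA, fewer cells that make a transcript and less transcript per cell cannot be told apart.

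**Figure D2:**
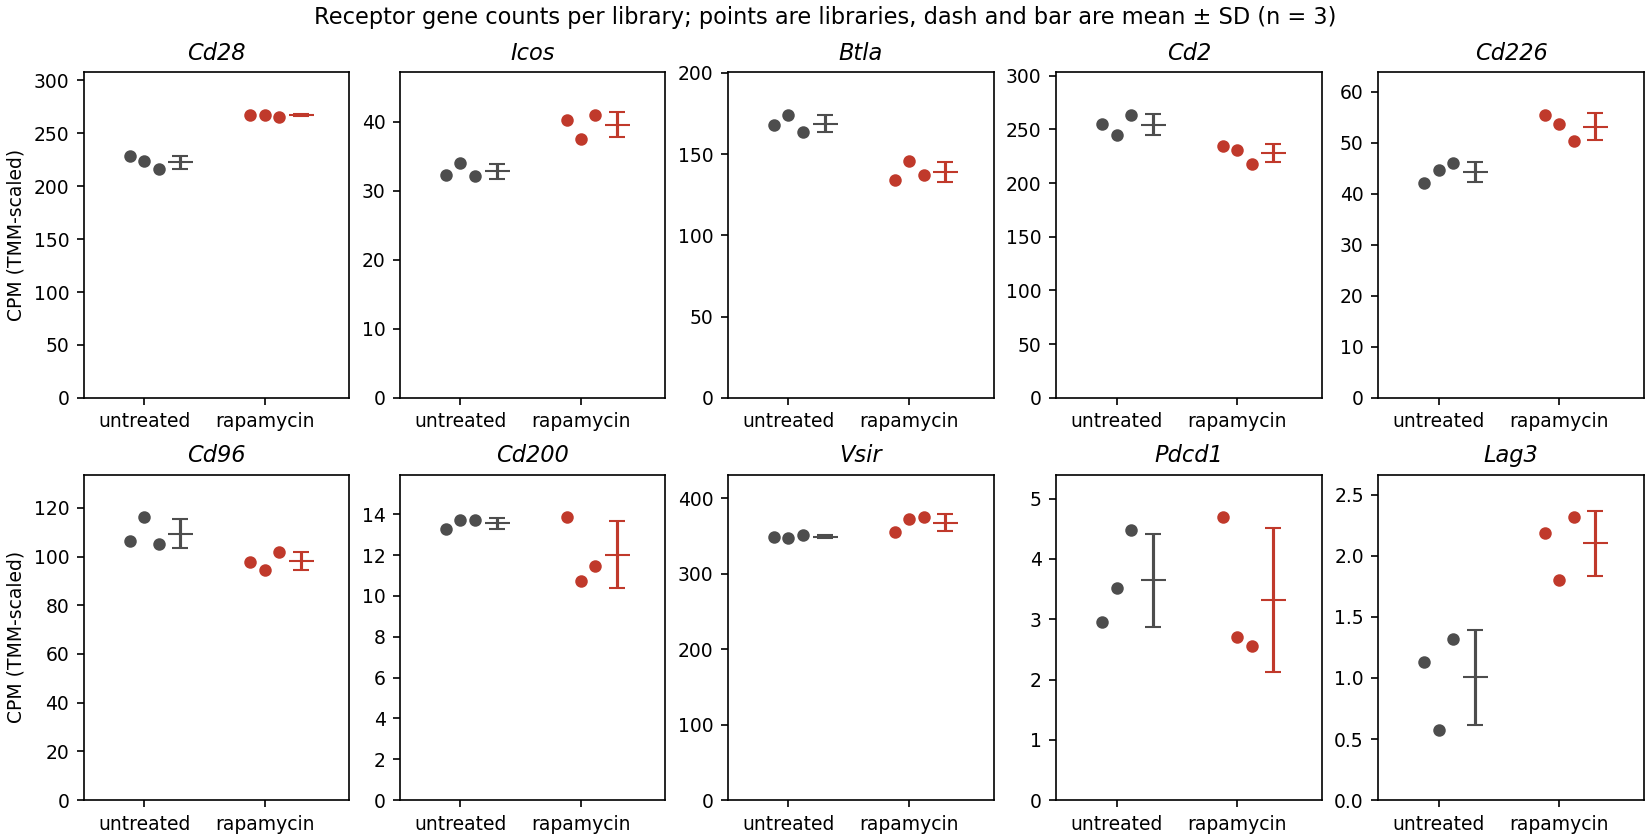
TMM-scaled CPM of each receptor gene in the untreated (grey) and rapamycin (red) libraries, with the mean and SD of each group (n = 3); every axis starts at 0. The 3 rapamycin points of Cd28 lie between 266 and 268 CPM, above the untreated 216 to 228 CPM, while those of Pdcd1 and Cd200 overlap with the untreated points.

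Cd28 encodes the main costimulatory receptor of naive T cells, which binds CD80 and CD86 on antigen-presenting cells (ENSMUSG00000026012, mm10 chromosome 1, 60716800 to 60773359). It had 228, 223 and 216 CPM in the untreated libraries and 267, 268 and 266 CPM in the rapamycin libraries. All rapamycin libraries were higher than all untreated ones and lay within 2 CPM of each other. The log2 fold change was 0.26 ± 0.03 (SE), or 1.2-fold, with an adjusted p of 3.6e-11. The call held under all 19 alternative analyses, whose log2 fold changes ran from 0.11 to 0.37. The lowest values came from corrections that remove trends of each library's deviations with gene length, under which it was 0.12 (adjusted p = 7.38e-04, with a range over the alternatives from 8.85e-13 to 0.00306).

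Icos encodes a CD28 relative that binds ICOS ligand and is known for its part in follicular and regulatory T cells (ENSMUSG00000026009, chromosome 1, 60977927 to 61000320). Its values were 32.3, 34.1 and 32.1 CPM in untreated and 40.2, 37.6 and 41.0 CPM in rapamycin libraries, again without overlap. The log2 fold change was 0.27 ± 0.08, with an adjusted p of 0.00235, and the call held under all 19 alternatives, from 0.20 to 0.38. Cd28 and Icos lie 205 kb apart, and the gene between them, Ctla4, encodes the inhibitory receptor that shares the ligands of CD28. Ctla4 rose by 0.82 ± 0.22 on the log2 scale (adjusted p = 0.00159), with 3.64 ± 1.14 CPM untreated and 6.37 ± 0.511 CPM with rapamycin. An annotated transcript of unknown status, Gm37039, overlaps Icos on the same strand and had at most 0.403 CPM as a group mean.

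Cd226 encodes DNAM-1, an activating receptor for the nectin-like protein CD155 and for nectin-2 (ENSMUSG00000034028, chromosome 18, 89176967 to 89272229). It had 42.1, 44.7 and 46.0 CPM in untreated and 55.5, 53.7 and 50.3 CPM in rapamycin libraries. The lowest rapamycin library lay above the highest untreated one, and the difference was 0.27 ± 0.07 on the log2 scale, with an adjusted p of 6.04e-04. It held under all 19 alternatives, from 0.22 to 0.43, and was 0.43 with the length correction.

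Cd96, whose product binds CD155 as well, went the other way (ENSMUSG00000022657, chromosome 16, 46035657 to 46120251). It had 106, 116 and 105 CPM in untreated and 97.6, 94.5 and 102 CPM in rapamycin libraries. The nearest libraries of the groups were 105 and 102 CPM, so that the groups were close without overlapping. On the log2 scale the difference was −0.16 ± 0.05, with an adjusted p of 0.00404. The call was lost without untreated replicate 2 (−0.12, adjusted p = 0.0603), with offsets from the deposited effective lengths (−0.17, adjusted p = 0.056) and on log2(TPM + 1) (−0.06, adjusted p = 0.504), with a range over its alternatives from 3.03e-04 to 0.504. Pvr, which encodes CD155 itself, fell from 68.2 ± 2.18 to 50.03 ± 2.08 CPM in the same libraries, a call on counts that was lost on log2(TPM + 1).

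Cd2 encodes an adhesion and costimulatory receptor (ENSMUSG00000027863, chromosome 3, 101275899 to 101287939). It had 255, 244 and 264 CPM in untreated and 234, 231 and 218 CPM in rapamycin libraries. All rapamycin libraries were lower, with a log2 fold change of −0.16 ± 0.03 and an adjusted p of 2.2e-05. Its direction was not stable: with the length correction it was 0.05 (adjusted p = 0.192), and on log2(TPM + 1) −0.05 (adjusted p = 0.38), over a range of adjusted p from 2.1e-07 to 0.38. Cd48, the gene of its ligand, had 78.8 ± 5.05 and 79.1 ± 5.92 CPM (log2 fold change 0.01 ± 0.06, adjusted p = 0.934, and 0.20 with a call under the length correction, adjusted p = 0.00216, over a range from 0.00216 to 0.994).

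Btla encodes an inhibitory receptor that binds the herpesvirus entry mediator and carries phosphatase-recruiting motifs (ENSMUSG00000052013, chromosome 16, 45224315 to 45257670). It had 168, 174 and 164 CPM in untreated and 134, 146 and 137 CPM in rapamycin libraries. All rapamycin libraries were lower than all untreated ones. In log2 terms the change was −0.28 ± 0.04, or 1.22-fold lower, with an adjusted p of 5.0e-09. The call held under 17 of 19 alternatives, and on log2(TPM + 1) the value was −0.15 (adjusted p = 0.0752, with a range over the alternatives from 7.07e-14 to 0.0752). Tnfrsf14, the gene of the herpesvirus entry mediator, had 30.8 ± 2.76 and 28.0 ± 3.27 CPM and did not pass the threshold (−0.14 ± 0.09, adjusted p = 0.214).

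Btla, Cd200 and Cd96 share a stretch of chromosome 16. Btla and Cd200 are neighbours on opposite strands, 124 kb apart, and Cd96 lies 627 kb beyond Cd200. The table of RefSeq promoter windows on GRCm38.p6, the assembly that mm10 names, held 5 of the 10 genes (Btla, Cd96, Cd200, Vsir and Pdcd1). The windows of the 3 genes on chromosome 16, of which Btla and Cd96 were both called lower, are shown because they let the starts of these neighbours be compared. Each runs 5′ to 3′ on its gene's strand from 250 bases before the RefSeq start to 50 bases from it on. Btla is chr16:45224087-45224386 on the plus strand, Cd200 chr16:45409004-45409303 on the minus strand and Cd96 chr16:46120199-46120498 on the minus strand, and capitals mark the motif matches found.
Btla: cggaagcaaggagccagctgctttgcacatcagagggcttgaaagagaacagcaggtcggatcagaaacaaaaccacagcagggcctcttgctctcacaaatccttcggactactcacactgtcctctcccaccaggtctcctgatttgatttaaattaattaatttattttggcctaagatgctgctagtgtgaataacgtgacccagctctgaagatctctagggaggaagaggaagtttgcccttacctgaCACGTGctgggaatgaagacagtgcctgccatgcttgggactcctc
Cd200: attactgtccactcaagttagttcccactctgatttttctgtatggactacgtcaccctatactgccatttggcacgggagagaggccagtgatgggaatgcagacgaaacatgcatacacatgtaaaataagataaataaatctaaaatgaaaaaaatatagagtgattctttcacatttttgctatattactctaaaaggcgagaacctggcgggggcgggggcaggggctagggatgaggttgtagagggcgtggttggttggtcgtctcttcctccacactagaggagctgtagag
Cd96: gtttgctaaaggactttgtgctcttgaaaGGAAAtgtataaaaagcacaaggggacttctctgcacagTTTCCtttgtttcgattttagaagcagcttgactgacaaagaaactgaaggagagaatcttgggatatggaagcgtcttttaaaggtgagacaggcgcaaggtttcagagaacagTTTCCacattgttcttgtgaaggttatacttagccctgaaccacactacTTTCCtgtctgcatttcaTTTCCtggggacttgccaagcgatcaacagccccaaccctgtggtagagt
The letters searched on both strands were TGTTTAC (forkhead), TGACTCA (AP-1), TGACGTCA (CRE), GGAAA (NFAT core) and CACGTG (E-box), none of which contains another. The Btla window held 1 E-box, just after the start, a match present in 7.15% of 32851 windows of the same length. The Cd96 window held 5 matches of the NFAT core, on either strand, which 61.3% of all windows hold at least once. The Cd200 and Vsir windows held none of the 5 motifs, and the Pdcd1 window held 2 adjoining matches of the NFAT core. GC content was 49.0% for Btla, 45.0% for Cd200, 43.7% for Cd96, 63.7% for Vsir and 60.7% for Pdcd1, beside a median of 52.7% over all windows. These matches describe letters, and no binding was measured.

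Vsir encodes VISTA, an inhibitory receptor that naive T cells carry and that myeloid cells make in quantity (ENSMUSG00000020101, chromosome 10, 60346851 to 60372684). It had 349, 347 and 352 CPM in untreated and 355, 373 and 375 CPM in rapamycin libraries. The lowest rapamycin library exceeded the highest untreated one by little, and the log2 fold change was 0.07 ± 0.03 with an adjusted p of 0.0188. This was the least stable of the 8 calls: 10 of 19 alternatives ended it or turned its direction, among them the length correction (−0.02, adjusted p = 0.511) and upper-quartile factors (0.03, adjusted p = 0.36), over a range of adjusted p from 0.00412 to 0.993. It was also lost without untreated replicate 1 (0.07), untreated replicate 2 (0.07), rapamycin replicate 2 (0.06) or rapamycin replicate 3 (0.06), with adjusted p between 0.0645 and 0.106. Vsir lies within the much longer gene Cdh23 on the opposite strand. Whether the counting used strand is not given in the sources used here. Cdh23 had 1.10 ± 0.529 and 2.48 ± 0.652 CPM.

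Cd200 encodes a membrane glycoprotein found on T cells, B cells and neurons that inhibits cells bearing its receptor (ENSMUSG00000022661, chromosome 16, 45382135 to 45409053). It had 13.3, 13.7 and 13.7 CPM in untreated and 13.9, 10.7 and 11.5 CPM in rapamycin libraries. The highest library of all was a rapamycin library, and the groups overlapped. Its log2 fold change was −0.17 ± 0.13 (95% interval −0.43 to 0.09) with an adjusted p of 0.288. With offsets from the deposited effective lengths it was −0.73 and passed the threshold (adjusted p = 0.0388, with a range over the alternatives from 0.0388 to 0.917). Cd200r1, the gene of the receptor, fell from 18.2 ± 1.14 to 13.9 ± 0.597 CPM (log2 fold change −0.39 ± 0.12, adjusted p = 0.00405). On log2(TPM + 1) it was −0.26 and not called (adjusted p = 0.074, with a range over the alternatives from 0.00142 to 0.074).

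Pdcd1 and Lag3 were near the lower end of what these libraries can measure. Pdcd1 encodes PD-1, which restrains signalling from CD28 and the antigen receptor (ENSMUSG00000026285, chromosome 1, 94038305 to 94052553). It had 34, 37 and 44 counts in untreated and 43, 24 and 22 counts in rapamycin libraries, or 2.95, 3.52 and 4.47 against 4.70, 2.71 and 2.55 CPM. The groups overlapped, with 1 rapamycin library above all others. Its log2 fold change was −0.12 ± 0.27 (95% interval −0.65 to 0.41) with an adjusted p of 0.737. That interval does not exclude a moderate change in either direction. It was −0.46 without rapamycin replicate 1, the highest library, and 0.04 without untreated replicate 3, 0.01 without rapamycin replicate 2 or 0.03 without rapamycin replicate 3, none of them called. Cd274, the gene of the PD-1 ligand PD-L1, fell from 44.6 ± 3.45 to 37.1 ± 3.30 CPM (log2 fold change −0.26 ± 0.08, adjusted p = 0.00272). On log2(TPM + 1) it was −0.16 and not called (adjusted p = 0.256, with a range over the alternatives from 8.09e-05 to 0.256).

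Lag3 encodes an inhibitory receptor related to CD4 (ENSMUSG00000030124, chromosome 6, 124904361 to 124911705). It had 13, 6 and 13 counts in untreated and 20, 16 and 20 counts in rapamycin libraries, or 1.13, 0.571 and 1.32 against 2.18, 1.80 and 2.32 CPM. The groups did not overlap, although they rest on at most 20 counts a library. The log2 fold change was 1.06 ± 0.39, or 2.08-fold, with a 95% interval from 0.28 to 1.83 and an adjusted p of 0.0209. Without untreated replicate 2, the library with 6 counts, it was 0.78 and not called (adjusted p = 0.147), and it was also lost without rapamycin replicate 1 (1.03, adjusted p = 0.0602), without rapamycin replicate 3 (0.98, adjusted p = 0.0706), with DESeq2 (1.07, adjusted p = 0.0684) and with effective-length offsets (1.06, adjusted p = 0.0615), over a range from 0.0153 to 0.147. The stricter filter of 2 CPM in 3 libraries removed Lag3, so that 18 alternatives apply to it.

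**Figure D3:**
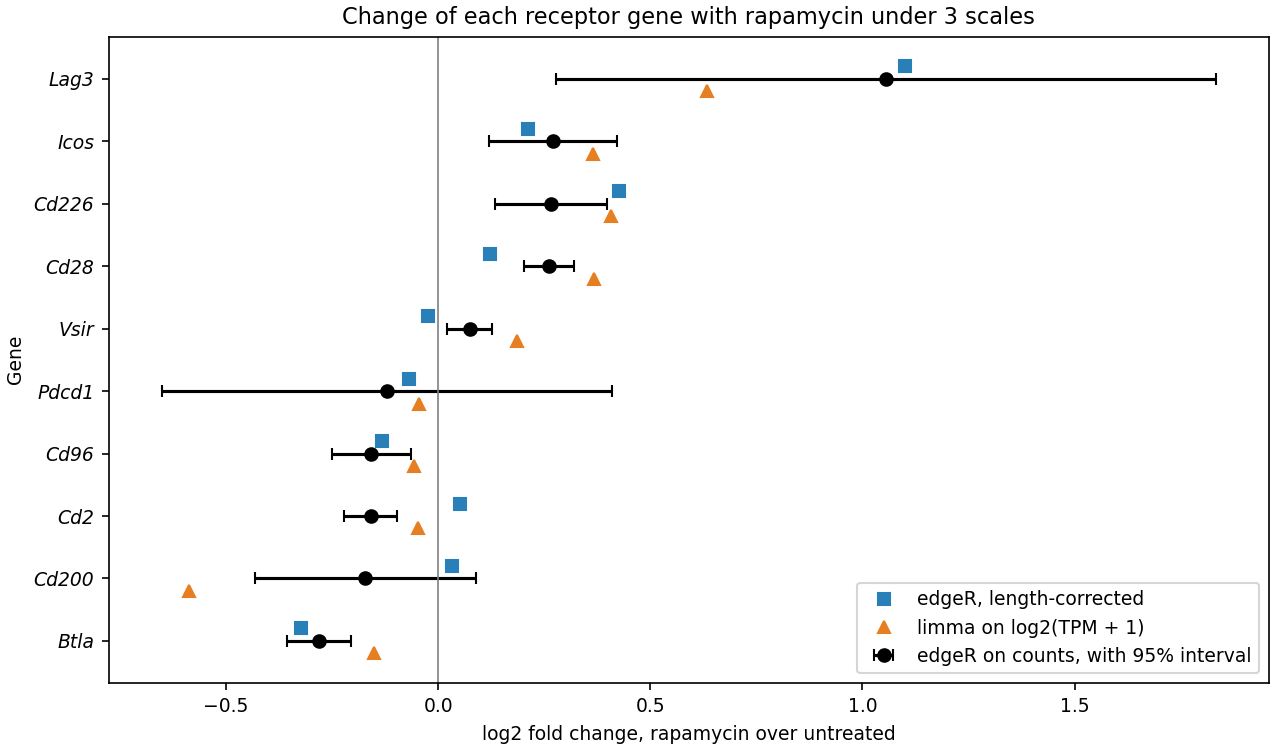
Log2 fold change of each receptor gene, rapamycin over untreated, from edgeR on counts (black, with its 95% interval), with the length correction (blue) and from limma on log2(TPM + 1) (orange). Cd28, Icos, Cd226 and Lag3 lie to the right of 0 on all 3 scales and Btla, Cd96 and Pdcd1 to the left, while Cd2, Vsir and Cd200 cross 0.

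The deposited TPM placed most genes higher with rapamycin, and 70.3% of the calls on log2(TPM + 1) were higher against 50.8% on counts. The median log2 fold change of all genes moved by 0.10 with log2(TPM + 1) and by 0.11 with log2(TPM + 0.1). On log2(TPM + 1) 5 receptor genes, the same as on counts, were called higher and 0 lower by limma, beside 22.8% and 9.63% of all genes tested, although 2 were lower at an unadjusted p under 0.05, and edgeR on counts called 3 lower. Relative to the median of all genes, the values were alike on the count and TPM scales for several genes: Cd28 stood at 0.27 and 0.28, Icos at 0.28 and 0.28, Cd2 at −0.15 and −0.13, Cd96 at −0.15 and −0.14 and Btla at −0.27 and −0.24. They stood further apart for Cd200, at −0.16 on counts and −0.67 on log2(TPM + 1). For Lag3 the value was 1.07 on counts and 0.55 on log2(TPM + 1), but 1.04 on log2(TPM + 0.1). The added constant of 1 is large beside its group means of 0.753 and 1.7 TPM.

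The deposited tables also give each gene's mean transcript length, which RSEM weights by the estimated abundance of the gene's transcripts, so that it moves when the mix of transcripts is estimated to differ. It varied between libraries for 8 of the 10 genes, since Cd96 and Pdcd1 have 1 transcript each. The groups did not overlap for Cd28 and Cd200, beside 17.7% of tested genes whose length varied. For Cd200 the length ran from 783 to 1216 bases in untreated and from 1251 to 1410 bases in rapamycin libraries, with 11 annotated transcripts and at most 153 counts behind each estimate. The untreated library with the shortest estimate had the highest TPM of all 6, 32.6, at 135 counts. For Cd28 it was 4233 to 4241 bases in untreated and 4191 to 4199 bases in rapamycin libraries, and the longest annotated transcript is 4347 bases long. For Btla (3027 to 3128 and 2952 to 3034 bases), Vsir (3615 to 3786 and 3520 to 3740 bases), Cd226 (1289 to 1445 and 1298 to 1395 bases) and Cd2 (1125 to 1131 and 1124 to 1133 bases) the groups overlapped. All 60 of the receptor gene counts were whole numbers within 0.005.

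**Figure D4:**
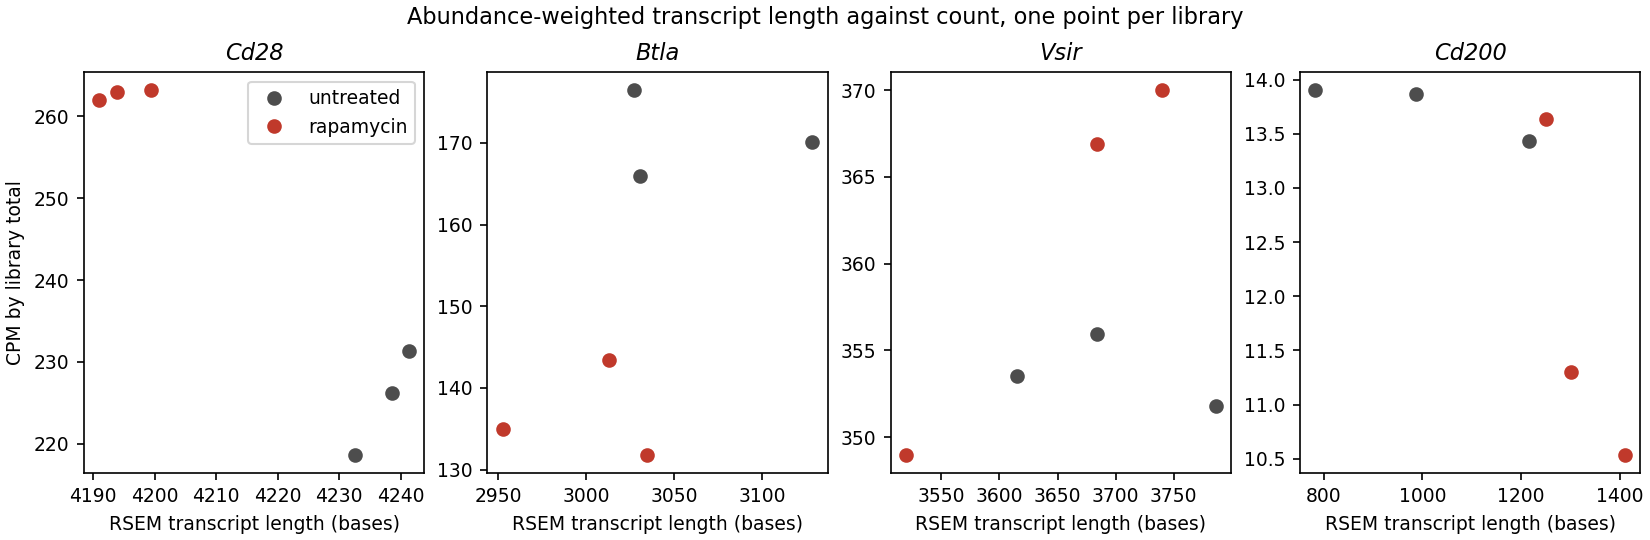
Abundance-weighted transcript length in bases against CPM by library total for Cd28, Btla, Vsir and Cd200, with a point for each untreated (grey) and rapamycin (red) library. The lengths of the groups are apart for Cd28 and Cd200 and overlap for Btla and Vsir.

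The partners of these receptors were read from 3 lists, which were also chosen with earlier results of these data known. Of 18 ligands and counter-receptors 9 passed the filter on low counts, 1 rose and 4 fell, beside 24.1% and 23.3% of all genes tested. The median log2 fold change was −0.18, beside −0.01 over all genes tested. Selplg, which encodes PSGL-1, a partner of VISTA, rose by 0.23 ± 0.02 from 492 ± 12.1 to 575 ± 4.70 CPM (adjusted p = 1.1e-12). Pvr changed by −0.45 ± 0.06 (adjusted p = 5.18e-09), but by −0.27 and without a call on log2(TPM + 1) (adjusted p = 0.0722, with a range over the alternatives from 5.12e-13 to 0.0726). Lgals9, a galectin gene, changed by −0.43 ± 0.05 (adjusted p = 4.78e-12). The ICOS ligand gene Icosl had 35.7 ± 0.728 and 38.8 ± 1.83 CPM and Cd86 3.48 ± 0.296 and 3.07 ± 0.481 CPM, and neither passed (adjusted p = 0.185 and 0.608).

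Of 27 other costimulatory and inhibitory receptors 22 were tested, 8 rose and 9 fell, beside 24.1% and 23.3% of all genes tested, with a median of −0.10. Members of the SLAM family rose: Slamf6 from 129 ± 5.82 to 237 ± 3.21 CPM (log2 fold change 0.87 ± 0.03, adjusted p = 1.33e-30) and Cd84 from 150 ± 0.692 to 219 ± 8.57 CPM (0.55 ± 0.03, adjusted p = 1.95e-21), whereas Slamf1 fell by 0.37 on counts, a call lost on log2(TPM + 1), and Ly9 did not pass (−0.03 ± 0.04, adjusted p = 0.472). Cd55, a complement regulator that also costimulates T cells, rose by 0.77 ± 0.04. The scavenger-type receptors Cd5 and Cd6, which restrain antigen receptor signalling, changed by −0.19 ± 0.03 and −0.31 ± 0.03, and the tetraspanin gene Cd82 by −0.37 ± 0.04. Cd6 and Cd82 kept their call under all 19 alternatives, while Cd5 was −0.06 and not called on log2(TPM + 1) (adjusted p = 0.131, with a range over the alternatives from 9.27e-13 to 0.131). Tigit, the inhibitory receptor that shares CD155 with Cd226 and Cd96, was too low to be tested, at 0.322 CPM without treatment and 0.265 CPM with rapamycin, about the level of 3 counts.

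Of 34 signalling genes below these receptors, all were tested, 11 rose and 12 fell, beside 24.1% and 23.3% of all genes tested, with a median of −0.02. With the length correction 4 rose and 16 fell, beside 20.2% and 18.3%. Pik3cd, the catalytic subunit of the phosphoinositide 3-kinase that CD28 and ICOS engage, rose from 927 ± 11.7 to 1418 ± 15.2 CPM (0.61 ± 0.02, adjusted p = 2.4e-37, length-corrected 0.45). Prkcq, the kinase PKC-theta downstream of CD28, rose by 0.25 ± 0.02 and the adaptor gene Grap2 by 0.23 ± 0.02 (length-corrected 0.18 and 0.13). Ptpn6, which encodes the phosphatase SHP-1 that inhibitory receptors recruit, fell from 366 ± 6.84 to 269 ± 2.36 CPM (−0.44 ± 0.03, adjusted p = 2.27e-21), and Sit1, an inhibitory transmembrane adaptor gene, from 71.6 ± 1.68 to 38.5 ± 3.64 CPM (−0.90 ± 0.06). Lck, the kinase of the CD4 coreceptor, changed by −0.30 ± 0.02 (length-corrected −0.18).

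**Figure D5:**
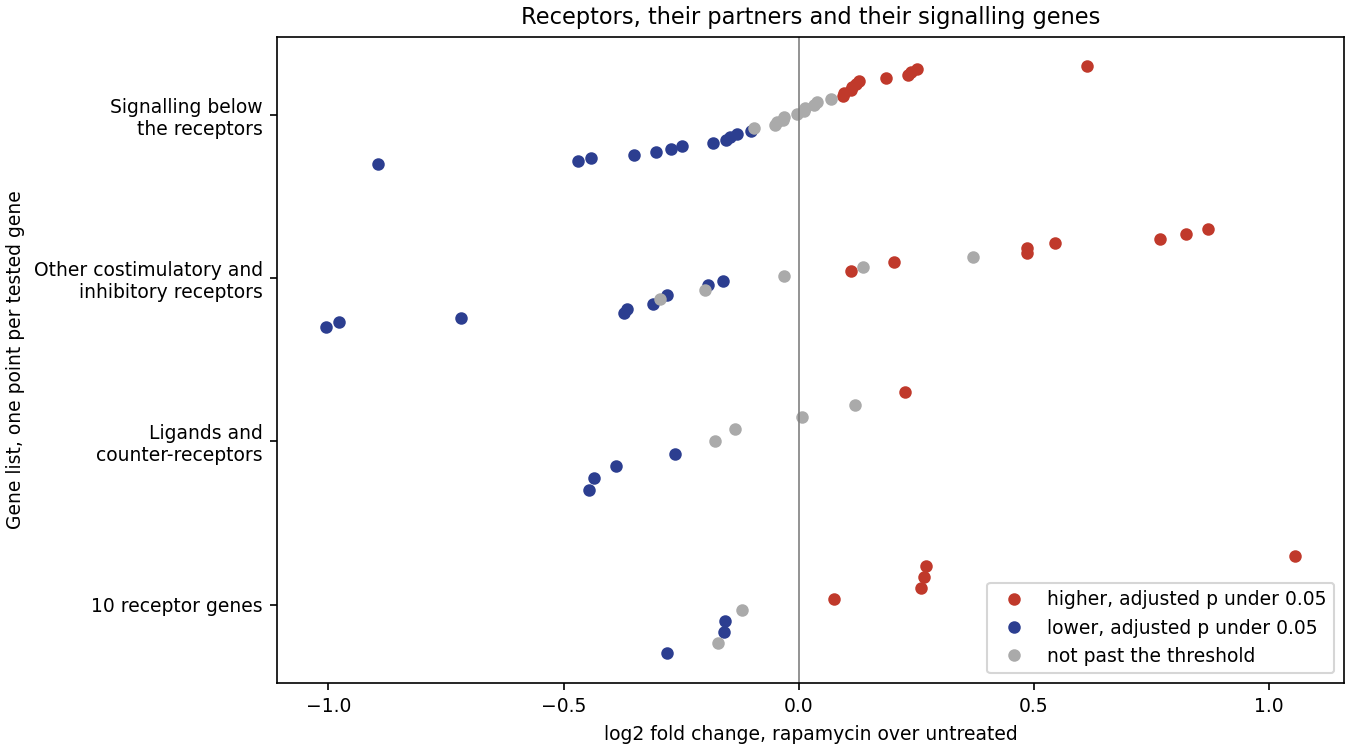
Log2 fold change, rapamycin over untreated, of every tested gene of the 10 receptors, their ligands and counter-receptors, other receptors of the kind and signalling genes, coloured by the edgeR call. Each of the 4 rows holds genes called in both directions, with Slamf6 and Ctla4 among the highest and Sit1 the lowest of the signalling genes.

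Markers of other cells that such a gate could hold were measured beside these results. Regulatory T cell markers summed to between 121 and 122 CPM in untreated and between 106 and 117 CPM in rapamycin libraries. 4 of the 8 rose and 2 fell, beside 24.1% and 23.3% of all genes tested, with a median log2 fold change of 0.55, beside −0.01. Itgae rose from 0.603 ± 0.184 to 3.66 ± 1.502 CPM (2.59 ± 0.39), Nrp1 from 0.716 ± 0.320 to 3.51 ± 0.956 CPM (2.27 ± 0.37), Ikzf2 by 0.76 ± 0.20 and Ikzf4 by 0.44 ± 0.14. Itgae and Nrp1 were near the floor in untreated libraries, at 0.48 to 0.82 and 0.41 to 1.06 CPM by library total. In those libraries 3 counts correspond to 0.263 to 0.309 CPM. The most abundant pair of the list, Izumo1r and Capg, fell by 0.33 and 0.33, from 64.1 ± 2.68 to 51.0 ± 2.93 CPM and from 36.6 ± 1.17 to 29.0 ± 2.70 CPM. Of these, Itgae and Nrp1 kept their call under all 19 alternatives. The others lost it on log2(TPM + 1), and Ikzf4 also without untreated replicate 2 or rapamycin replicate 1. With the length correction Ikzf4, Izumo1r and Capg were not called (0.27, −0.14 and −0.14, adjusted p = 0.13, 0.0571 and 0.17). That correction left 3 genes of the list higher and 0 lower, beside 20.2% and 18.3% of all genes tested. The defining genes did not pass: Foxp3 had 1.65 ± 0.676 and 1.92 ± 0.0473 CPM (log2 fold change 0.23 ± 0.36, adjusted p = 0.632) and Il2ra 1.94 ± 0.897 and 3.12 ± 0.559 CPM (adjusted p = 0.0783). Icos, Ctla4 and Lag3 are known to be high in regulatory T cells. Memory, effector and follicular markers summed to between 149 and 156 CPM in untreated and between 128 and 142 CPM in rapamycin libraries. Of the 12, 7 were tested, and 2 rose and 3 fell, beside 24.1% and 23.3% of all genes tested. Cd44 fell from 33.7 ± 2.31 to 10.7 ± 0.185 CPM, and Ccl5 and Tbx21 fell as well. Id2, the most abundant gene of that list, rose from 46.3 ± 1.65 to 61.9 ± 6.49 CPM, and Cxcr6 rose from 1.79 ± 0.941 to 4.14 ± 1.44 CPM. The follicular genes Cxcr5 and Bcl6 did not pass (−0.03 ± 0.10 and −0.00 ± 0.08, adjusted p = 0.843 and 0.993).

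B cell markers, which matter for Btla and Cd200 because B cells make both, summed to between 682 and 732 CPM in untreated and between 653 and 687 CPM in rapamycin libraries, with 2 of 10 lower and the other 8 not called. Over all genes tested 24.1% were higher and 23.3% lower, the shares to set beside the counts of each marker list here. Cd79a had 110 ± 6.34 and 103 ± 3.86 CPM (adjusted p = 0.108). Myeloid and dendritic markers, which matter for Vsir, summed to between 53.0 and 59.5 CPM in untreated and between 16.6 and 18.5 CPM in rapamycin libraries, with 9 of 10 tested lower and Lyz2 falling from 17.2 ± 1.26 to 3.71 ± 0.217 CPM. NK cell markers, which matter for Cd96, Cd226 and Cd2, summed to between 67.6 and 72.3 and between 60.9 and 63.7 CPM, with 2 of 6 tested lower. These were Gzma, from 7.79 ± 1.35 to 2.18 ± 0.0929 CPM, and Klrb1c, from 2.35 ± 0.073 to 0.751 ± 0.0682 CPM. Prf1, the most abundant gene of that list at 40.7 ± 1.02 and 41.2 ± 2.83 CPM, was not called, nor were Eomes, Klrd1 and Klrk1. Both CD8 genes rose, and their sum went from between 19.3 and 20.7 to between 86.7 and 89.5 CPM, with Cd8a at 5.07 ± 0.268 and 43.4 ± 1.25 CPM. Plasma cell markers summed to between 26.4 and 30.5 and between 23.1 and 25.7 CPM (1 higher and 2 lower of 4). That sum joins opposite changes. Jchain fell from 11.63 ± 1.935 to 0.788 ± 0.196 CPM and Sdc1 from 1.51 ± 0.12 to 0.448 ± 0.215 CPM. Prdm1 rose from 8.94 ± 1.79 to 18.67 ± 1.095 CPM, and Mzb1 was not called. Erythroid and platelet markers summed to between 2.24 and 3.88 and between 0.430 and 2.47 CPM (1 of 4 tested, not called). Naive CD4 T cell markers summed to between 5754 and 5827 and between 6214 and 6278 CPM, with 4 of 8 higher and 3 lower. No marker was at 0 in all 6 libraries. The part of these cells in the receptor results was not tested.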

How the data were processed

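Poly(A) RNA of 6 libraries was analysed, 3 untreated and 3 rapamycin, grouped by their titles. Per the submitters' processing notes, the authors used STAR and RSEM on mm10, while versions, annotation and strand setting are not given in the sources used here. Deposited tables hold, per the file headers, expected counts (estimated counts that need not be whole), TPM, FPKM (not used here), length and effective length for 55487 genes. Both TPM and FPKM were deposited already scaled by transcript length and by depth. GENCODE M21 (GRCm38) matched 55227 identifiers, and 260 did not match.

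Counts were rounded to whole numbers. edgeR 4.0.16 (R 4.3.3) with filterByExpr, TMM factors and the robust quasi-likelihood test, group as the only term, gave log2 fold changes over 11950 genes, adjusted by Benjamini-Hochberg at 0.05. The SE is the fold change over the square root of F. The 10 genes and all lists were chosen with earlier results of these data known. Text names all 10 genes, up to 6 called genes of each partner list by smallest adjusted p, Ctla4, Tigit and fixed markers. Cd48, Tnfrsf14, Icosl, Cd86, Slamf1, Ly9 and the chromosomal neighbours were named as partners or neighbours of a member after values were seen. Marker genes beyond the fixed ones, such as Jchain, Prf1 and Id2, were likewise named after values were seen. Marker sums are CPM by library total.

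The 19 alternatives were other factors (RLE, upper-quartile, none), no filter, at least 2 CPM in 3 libraries, DESeq2 1.42.0, limma 3.58.1 (voom, and trend on log2(TPM + 1) and log2(TPM + 0.1)), offsets from effective lengths, removal of a smooth length trend (natural spline, df 5) alone or with GC content, the replicate block and leaving out each library. Libraries of a group differed by 1.72 to 1.99 times counting noise, so none was a copy. On simulated data for this comparison, over 11792 genes, the test found 36.7% of the 1.2-fold changes, 80.0% of the 1.5-fold and 96.0% of the 2-fold ones, and 4.40% of its calls were on unchanged genes. The simulation changed only 49, 50, 50 and 47 genes, by 1.2-, 1.5-, 2- and 3-fold. In the data 47.4% of tested genes were called. The p-value that passes after adjustment depends on that share, so these rates need not hold for the data. Figures used Python 3.11.15 and matplotlib 3.10.9.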

Additional observations from a re-analysis of the deposited data

How the results depend on the processing

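Of the 10 receptor genes, Cd28, Icos and Cd226 kept their call under all 19 alternatives. Cd2 turned to 0.052 with the length correction and to 0.0625 with length and GC correction, and Vsir to −0.0239 with the length correction, none of them called. Cd3e, not called on counts with TMM factors, was called higher with the length correction (0.1145, adjusted p = 3.23e-04) and with length and GC correction (0.1047, adjusted p = 9.8e-04). It was called lower with upper-quartile factors (−0.08, adjusted p = 0.00915) and without composition factors (−0.08, adjusted p = 0.011). The number of receptor genes called higher, 5, became 3 with effective-length offsets and lay between 3 and 5 when a library was left out, with 3 without untreated replicate 2 or rapamycin replicate 3. Over all genes, 2874 called higher became 1930 of 11950 with these offsets. When a library was left out, between 2579 and 2698 of 12146 to 12233 genes tested were called higher. The number of receptor genes called lower, 3, became 0 with limma on log2(TPM + 1) and 0 on log2(TPM + 0.1), where 2 were lower at an unadjusted p under 0.05. These scales also gave 1151 and 1137 genes lower over all genes instead of 2785, as effective-length offsets gave 1801, and left 1 and 1 ligand, 3 and 3 other receptors and 4 and 4 signalling genes lower, where counts gave 4, 9 and 12. Ligands called higher went from 1 to 2 with the length correction and 2 with length and GC correction. Signalling genes called higher went from 11 to 7 with upper-quartile factors, 7 without composition factors, 4 with the length correction and 3 with length and GC correction. Over all genes these settings called 2459, 2470, 2411 and 2410 higher. Upper-quartile factors gave 42.5% of all calls higher and no composition factors 42.8%, against 50.8%. Replicate numbers did not pair the libraries: deviations of same-numbered libraries correlated across genes at −0.06, −0.03 and −0.06. With the replicate block 2850 genes were higher and 2743 lower, and 5 and 3 of the receptor genes. The cause of these shifts was not tested. Depth limits Pdcd1 and Lag3, which had at most 44 counts in a library.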

Other observations

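The coding genes next to the 10 receptor genes on their chromosomes numbered 17, leaving out other members, of which 12 were tested, 6 were called higher, 1 lower and 5 not called, beside 24.1% and 23.3% of all genes tested. Igsf3, an immunoglobulin superfamily gene beside Cd2, rose from 4.79 ± 0.560 to 9.12 ± 0.767 CPM (0.93 ± 0.18, adjusted p = 1.47e-05) and kept its call under all 19 alternatives, as did Ctla4. Ptgfrn on the other side of Cd2 (0.37 ± 0.13), Plcxd2 beside Cd96 (0.35 ± 0.06) and Rttn beside Cd226 (0.33 ± 0.09) were called higher on counts. With the length correction they were not called, at 0.14, 0.06 and 0.13, and Ptgfrn was also lost without untreated replicate 1 or 2. Cdh23, which holds Vsir, was called higher (1.16 ± 0.37), but not without untreated replicate 1 or rapamycin replicate 2 (0.95 and 0.95). Cd4, beside Lag3, was called lower at −0.06 ± 0.02, and not without untreated replicate 3 or rapamycin replicate 2 (−0.05 and −0.05). Its call was also lost with DESeq2 (−0.055, adjusted p = 0.0522) and with limma on log2(TPM + 1) (−0.01, adjusted p = 0.818). Raph1 beside Cd28 (0.21 ± 0.24), Atg3 beside Btla (−0.12 ± 0.06), Gm4737 beside Cd96 (−0.11 ± 0.39), Fam174a beside Pdcd1 (−0.23 ± 0.11) and Ptms beside Lag3 (−0.14 ± 0.08) did not pass.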
